A study of Homo sapiens with 3 samples.

Results

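The NR4A and cAMP-CREB responsive genes were 9 genes taken by symbol from the A375 count table: NR4A1, NR4A2, NR4A3, CREM, SIK1, PDE4B, PDE4D, PPARGC1A and CRTC2. They were 9 of 58037 genes in the table, and 8 of them averaged 20 normalised counts or more over the libraries, as 14413 genes did in all. SIK1, with a mean of 2.64, did not reach that level. A375 is an established human melanoma cell line. It was kept for 24 h, per the description of the series, in serum-free DMEM (control), in the secretome of young adipocytes (YA-A375) or in the secretome of old adipocytes (OA-A375). A secretome is medium conditioned by cells, here fat cells differentiated in culture from human preadipocytes in a cocktail that held insulin, dexamethasone, indomethacin and IBMX, a phosphodiesterase inhibitor. The fat cells were then kept in a maintenance medium, and were washed and moved to serum-free DMEM for collection. Which donors gave these secretomes was not stated in the sample labels. Among the donors the paper lists, the young were mostly female, with purchased cells from the chest. Its old donors were all male, mostly from a biobank and other body sites. Donor age thus cannot be told apart from sex, site and source. All 3 groups shared the cell line and the serum-free base medium, and each was 1 poly(A) RNA library.

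The comparisons ask how expression in the melanoma cells differs with exposure to either secretome and between the secretomes. A group of 1 library gives no spread between replicates, and no test was made. Differences are given as folds of normalised counts with a 95% Clopper-Pearson interval, which covers counting error of the reads only and compares libraries rather than conditions. YA-A375 and OA-A375 were set against the same control library, so their folds share its error.

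Totals ran from 18089008 to 21448195 counts per library. Of 5 melanoma cell markers, CSPG4, S100B, MCAM and VIM had 550 counts or more in every library, while SOX10, a defining factor of the melanocyte lineage, had 0 in all 3. POLR2F on the other strand shares 2.40% of the SOX10 exon bases. Whether the 0 reflects expression or how reads were counted was not tested. Adipocyte markers summed to 769 counts in control, 1401 in YA-A375 and 498 in OA-A375, with LEP at 0 throughout and ADIPOQ at 1, 0 and 0. LPL alone had 353, 583 and 30 of these counts, and without it the sums were 416, 818 and 468, or 392, 773 and 525 after normalisation. Fibroblast markers summed to 882, 1101 and 603 counts, with COL1A2 and COL3A1 at 2 counts or fewer in every library. The cultures held 1 cell line, and the paper says that the secretomes were centrifuged and stored frozen before use. Control, which received no secretome, held these transcripts too. Their part in the results was not tested. In bulk RNA, fewer cells with a transcript and less of it per cell cannot be told apart.

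Cyclic AMP is made by adenylyl cyclases downstream of G protein-coupled receptors and activates protein kinase A, which phosphorylates the transcription factor CREB. CREB, with CRTC coactivators that enter the nucleus when the salt-inducible kinases are inhibited, drives genes with a cAMP response element (CRE) in their promoter, among them the NR4A orphan nuclear receptors, CREM, SIK1, PPARGC1A and phosphodiesterase 4 genes. Several of these products, such as the ICER repressor made from CREM, SIK1 and the phosphodiesterases, dampen the pathway in turn, and in melanocytes the same pathway acts below the melanocortin receptor MC1R.

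The CRE letters were looked for in RefSeq promoter windows (GRCh38.p14, 250 bases before to 50 after a start). Of the 9 genes, 7 had an entry, with 27 windows in all. NR4A2 and CRTC2 were not among them. The full CRE, TGACGTCA, was found in 2 of the 27 windows and in 1.85% of 35116 promoter windows. Both windows belong to neighbouring internal starts of CREM and hold 1 site between them, at chr10:35195852-35195859, which begins at -50 from the start at 35195902. The CRE core TGACG, read on either strand and contained on both strands of the full CRE, was in 7 of the 27 windows and in 24.6% of all windows. The NR4A monomer element NBRE, AAAGGTCA, was in 0 of the 27 and in 1.22% of all. These stretches are shown because they hold the CRE letters of the genes whose levels follow. They read 5′ to 3′ along the gene's strand, and capitals mark the full CRE or its core on either strand.
CREM, internal start, chr10:35195841-35195870, plus strand: gagctgcacatTGACGTCAgctccgagtca
NR4A3, chr9:99821755-99821854, plus strand: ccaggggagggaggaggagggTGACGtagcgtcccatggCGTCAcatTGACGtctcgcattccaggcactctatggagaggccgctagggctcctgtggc
SIK1, chr21:43427237-43427356, minus strand: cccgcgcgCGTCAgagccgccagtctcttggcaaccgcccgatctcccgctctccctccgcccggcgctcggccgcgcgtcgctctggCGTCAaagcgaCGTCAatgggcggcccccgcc
PDE4D, internal start, chr5:59587666-59587695, minus strand: tagagggccccctTGACGccagcacatccc
PPARGC1A, distal start, chr4:24473008-24473037, minus strand: cagcgcgcccacgTGACGgccccggctctc

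NR4A3 carried 4 cores, at -109, -91, -83 and -25 from its start, 3 of them in the stretch shown, and SIK1 carried 3. CREM had a pair of further cores at another start, at -178 and -68 from it. PDE4D had a core in 1 of 8 windows and PPARGC1A in 1 of 2, at a start that lies outside the GENCODE bounds of the gene. The 2 windows of NR4A1 and the 6 of PDE4B held neither the CRE nor its core. NR4A1 has 22 annotated transcripts and PPARGC1A 18, and any starts outside the 2 windows of each were not searched. A match is a description of letters and does not show a bound site.

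**Figure D1:**
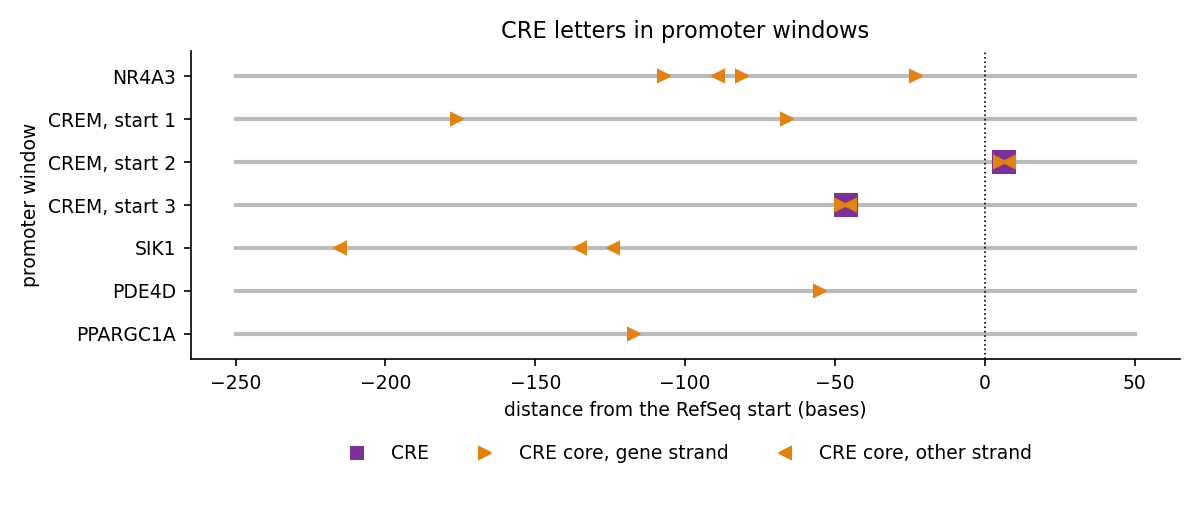
CRE letters in the 7 promoter windows that hold any, by distance from the RefSeq start in bases (horizontal axis). Squares mark the full CRE and triangles its core, pointing right on the gene's strand and left on the other. The full CRE is seen only in the 2 neighbouring CREM windows, and the NR4A3 window has 4 cores.

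Between YA-A375 and control, NR4A1, NR4A2 and PDE4D were higher in the secretome library by more than counting error. So was SIK1B, a near-identical copy of SIK1, on 9 counts in control, but it is not a member and was named after its values were seen. Of the 8 genes tested, 4 were at least 1.2-fold higher, a size reached by 17.4% of all genes, and 1 was at least 1.2-fold lower, as were 16.4% of all. The 4 were NR4A1, NR4A2, PDE4D and PPARGC1A, and the lower was NR4A3. The intervals of PPARGC1A (0.692 to 2.81) and NR4A3 (0.446 to 1.15) span 1. PPARGC1A was tested only through its level in OA-A375. At 2-fold, 1 was higher (2.15% of all genes) and 0 lower (0.971%). Their median log2 fold change was 0.25, against -0.02 over all genes tested.

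Between OA-A375 and control, PDE4B, PPARGC1A, PDE4D, NR4A1 and CREM were higher and NR4A2 was lower. At 1.2-fold, 5 of the 8 were higher (21.1% of all genes) and 2 lower (21.5%). The other lower gene, NR4A3, had an interval that spans 1 (0.400 to 1.11). At 2-fold, 2 were higher (2.86% of all genes) and 0 lower (3.71%). The median was 0.44, against 0.01 over all genes. PPARGC1A, among the higher at both thresholds, was tested only through its level in OA-A375, so its calls here were favoured in advance.

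Set directly against each other, the secretome libraries separated NR4A1 and NR4A2, higher in YA-A375, from CREM, PDE4B and PPARGC1A, higher in OA-A375. At 1.2-fold, 2 of 8 were higher in YA-A375 (23.0% of all genes) and 3 lower (21.5%), and at 2-fold 1 was higher (4.43%) and 2 lower (3.04%). Again PPARGC1A, among the lower at both thresholds, was tested only through its level in OA-A375. The median, -0.03, lay beside -0.01 over all genes. Thus the members did not share 1 direction, and each is described in turn.

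**Figure D2:**
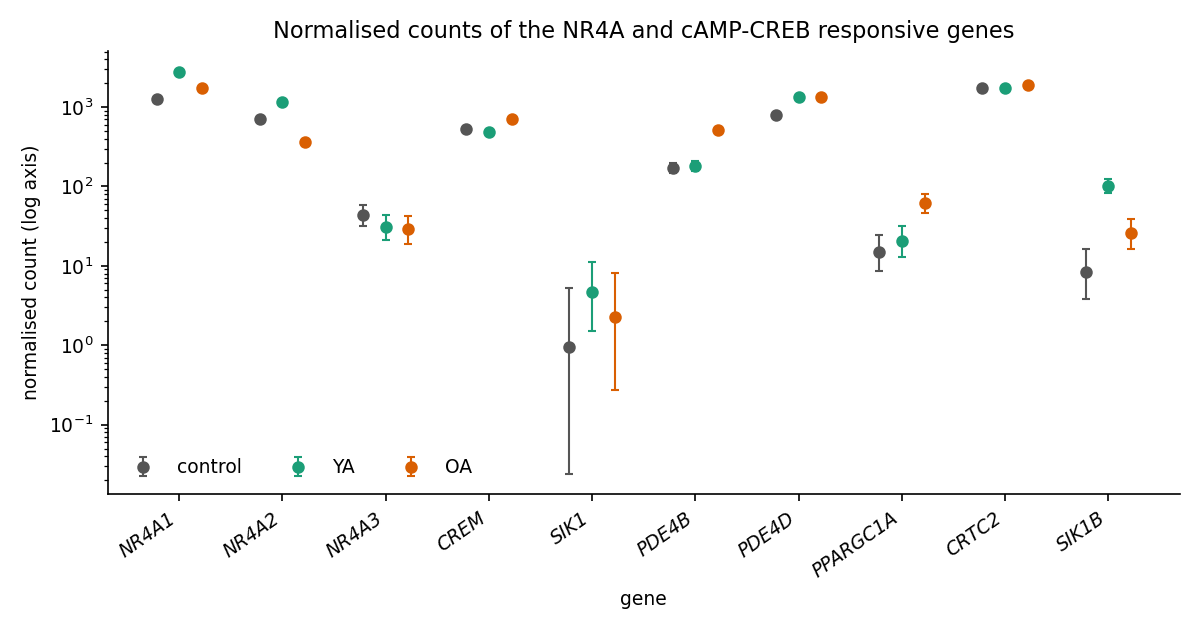
Normalised counts (log axis) of the 9 genes and of SIK1B, the near-identical copy of SIK1, in the control, YA and OA libraries. Points are single libraries and bars are 95% intervals for counting error. NR4A2 is lowest in OA, 358, while PDE4B and PPARGC1A are highest there, at 515 and 61.7.

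The NR4A genes encode orphan nuclear receptors that are induced early after stimulation and bind DNA without a known natural ligand. NR4A1 (ENSG00000123358.19, chr12:52022832-52059507, plus strand), also known as NUR77, had 1335 counts in control, 2910 in YA-A375 and 1550 in OA-A375. The normalised counts were 1258, 2750 and 1740. NR4A1 was thus highest in YA-A375 and lowest in control. It was 2.19-fold higher in YA-A375 than in control (interval 2.05 to 2.33), a log2 change of 1.13 that 219 of the 14413 genes exceeded. In OA-A375 it was 1.38-fold higher than in control (1.28 to 1.49), and YA-A375 stood 1.58-fold above OA-A375 (1.49 to 1.68). An opposite-strand gene, AC025259.3, overlaps 10.3% of the exon bases of NR4A1. It had 13, 23 and 7 counts, and whether the counting used strand was not stated.

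NR4A2 (ENSG00000153234.13, chr2:156324432-156342348, minus strand), known as NURR1, had 756 counts in control, 1225 in YA-A375 and 319 in OA-A375, or 712, 1158 and 358 after normalisation. The secretome libraries lay on opposite sides of control. NR4A2 was 1.63-fold higher in YA-A375 than in control (1.48 to 1.78) and stood at 0.503 of control in OA-A375 (0.440 to 0.574). Against OA-A375 it was 3.23-fold higher in YA-A375 (2.86 to 3.67), a log2 difference of 1.69 exceeded by 184 genes. In OA-A375 against control, where its log2 change was -0.99, 548 genes lay lower.

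NR4A3 (ENSG00000119508.17, chr9:99821855-99866891, plus strand), known as NOR1, had 46, 33 and 26 counts in control, YA-A375 and OA-A375. Normalised counts were 43.3, 31.2 and 29.2. It was the least abundant of the receptors in every library. The fold of control was 0.720 in YA-A375 (0.446 to 1.15) and 0.673 in OA-A375 (0.400 to 1.11), and both intervals span 1. YA-A375 against OA-A375 gave 1.07 (0.620 to 1.86). No difference was detectable for NR4A3 at this depth.

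Levels of different genes were compared in TPM, in which a count is divided by the merged exon length of its gene and each library is scaled to the same sum. On that scale NR4A1 over NR4A2 was 0.960 in control (0.878 to 1.05), 1.29 in YA-A375 (1.21 to 1.38) and 2.64 in OA-A375 (2.34 to 2.99). NR4A1 over NR4A2 was thus highest in OA-A375 and lowest in control. With the length of the longest transcript in place of merged exons, a choice added after seeing the data, the ratios were 1.27 in control (1.16 to 1.39), 1.71 in YA-A375 (1.59 to 1.82) and 3.49 in OA-A375 (3.09 to 3.95). The order of the libraries was the same, but which receptor is the more abundant in control depends on the length used. This ratio is taken within a library and does not depend on scaling between libraries.

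**Figure D3:**
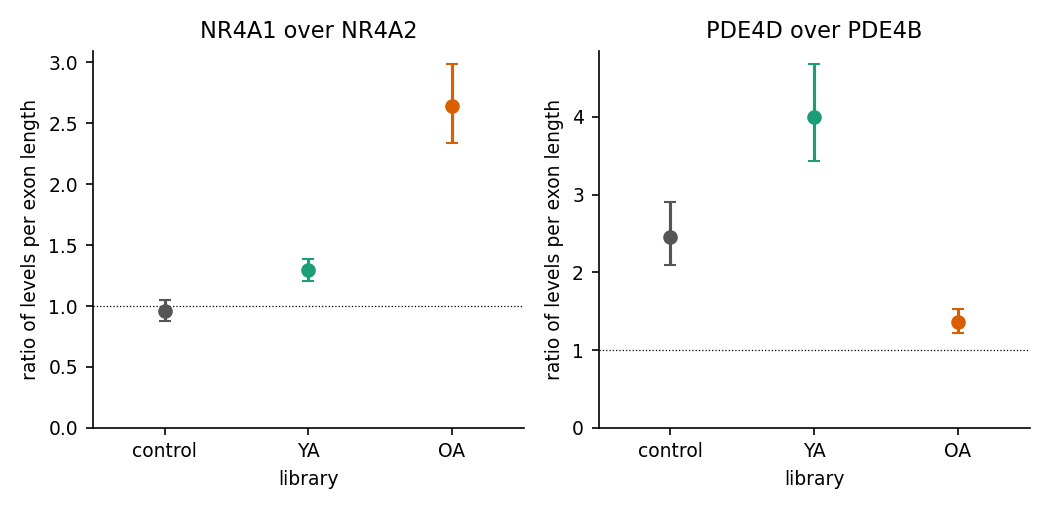
Ratios of levels per exon length within each library (vertical axes, starting at 0), for NR4A1 over NR4A2 and PDE4D over PDE4B. Points are single libraries, bars are 95% counting intervals and the dotted line marks equal levels. NR4A1 over NR4A2 is highest in OA (2.64), where PDE4D over PDE4B is lowest (1.36).

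CREM and the kinase SIK1 are CREB targets that feed back on CREB. CREM (ENSG00000095794.19, chr10:35126791-35212958, plus strand) encodes activators and, from internal starts such as those with the CRE shown above, the ICER repressors. It had 559 counts in control, 520 in YA-A375 and 624 in OA-A375, or 527, 491 and 700 after normalisation. OA-A375 was the highest library, at 1.33-fold of control (1.18 to 1.49). YA-A375 stood at 0.933 of control (0.826 to 1.05), an interval that spans 1, and at 0.702 of OA-A375 (0.623 to 0.790). A count per gene sums all 48 annotated transcripts, so the ICER forms cannot be told apart from the activators here.

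SIK1 (ENSG00000142178.7, chr21:43414483-43427189, minus strand), a salt-inducible kinase that restrains CRTC coactivators, had 1, 5 and 2 counts in control, YA-A375 and OA-A375. The ratio of YA-A375 to control was 5.01 with an interval from 0.561 to 237, so no difference was detectable. Control and OA-A375 were both under 3 counts, and no fold is given between them. These counts do not measure the gene well, because the reference holds a second, near-identical copy. The longest transcript of SIK1B (ENSG00000275993.2, chr21:6111134-6123739, plus strand) matches that of SIK1 at 4698 of 4705 aligned bases, and a read from either could be placed at the other or discarded as ambiguous.

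SIK1B, named here after its values were seen, had 9 counts in control, 108 in YA-A375 and 23 in OA-A375. SIK1 itself, at 5 counts or fewer, gave no order of the libraries to set beside this. Normalised counts of SIK1B, at 8.48, 102 and 25.8, put YA-A375 12.0-fold above control (6.11 to 27.0) and OA-A375 3.04-fold above control (1.36 to 7.48). YA-A375 was 3.95-fold above OA-A375 (2.5 to 6.50). With both copies summed, the counts were 10, 113 and 25. The summed folds were 11.3 for YA-A375 over control (5.94 to 24.3), 2.98 for OA-A375 over control (1.38 to 6.95) and 3.81 for YA-A375 over OA-A375 (2.45 to 6.13).

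**Figure D4:**
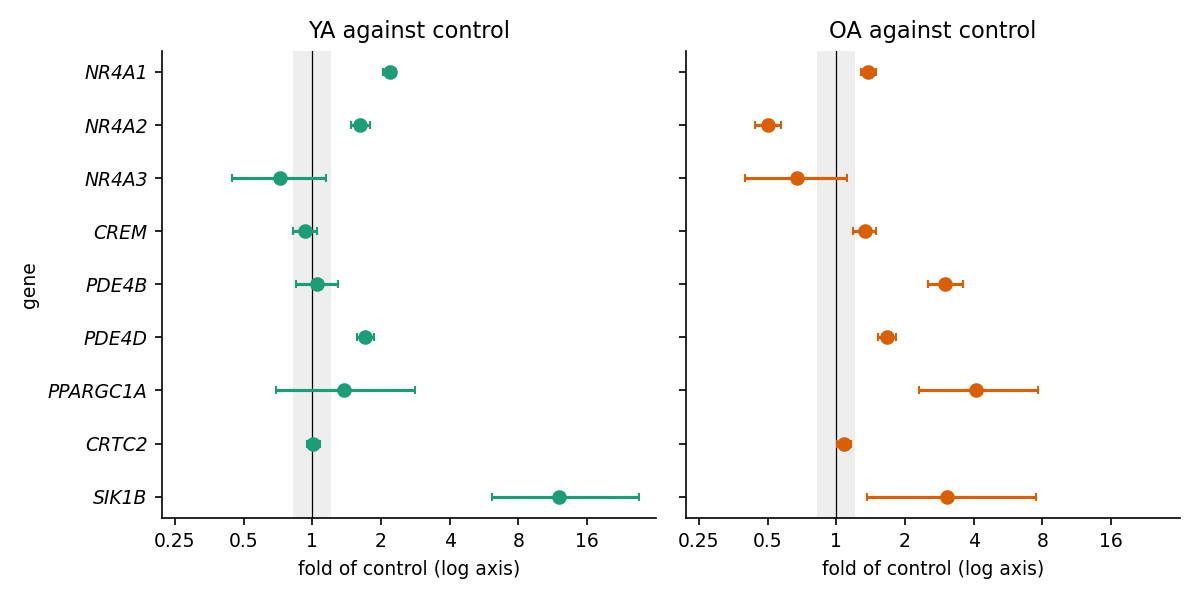
Fold of control (log axis) for the 8 tested genes and SIK1B in the YA library (left) and the OA library (right). Points are folds of normalised counts, bars 95% counting intervals, and the grey band runs to 1.2-fold either way. NR4A2 lies above the band in YA (1.63) and below it in OA (0.503). SIK1B, named after its values were seen, has the largest YA fold, 12.0, on 9 control counts.

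PDE4B and PDE4D encode phosphodiesterases of the cAMP-specific type 4, which break down cAMP. PDE4B (ENSG00000184588.17, chr1:65792514-66374579, plus strand) had 182 counts in control, 190 in YA-A375 and 459 in OA-A375, or 171, 180 and 515 after normalisation. Only OA-A375 stood apart from the other libraries. It was 3.00-fold above control (2.52 to 3.59), a log2 change of 1.58 that 132 genes exceeded, and 2.87-fold above YA-A375. YA-A375 over control was 1.05 (0.850 to 1.29).

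PDE4D (ENSG00000113448.17, chr5:58969038-60522120, minus strand) had 845, 1434 and 1182 counts, or 796, 1355 and 1327 after normalisation. Both secretome libraries lay above control by a similar amount. The fold was 1.70 in YA-A375 (1.56 to 1.86) and 1.67 in OA-A375 (1.52 to 1.82), and YA-A375 over OA-A375 was 1.02 (0.945 to 1.10). PDE4D over PDE4B in TPM was 2.46 in control (2.09 to 2.90), 4.0 in YA-A375 (3.44 to 4.68) and 1.36 in OA-A375 (1.22 to 1.52). PART1 on the other strand shares 1.39% of the PDE4D exon bases and had 48, 46 and 49 counts.

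PPARGC1A and CRTC2 are coactivators. PPARGC1A (ENSG00000109819.8, chr4:23755041-23904089, minus strand) encodes PGC-1α, which drives mitochondrial genes and oxidative metabolism. It had 16 counts in control, 22 in YA-A375 and 55 in OA-A375, or 15.1, 20.8 and 61.7 after normalisation. OA-A375 was 4.09-fold above control (2.31 to 7.66), a log2 change of 1.96 exceeded by 83 genes, and 2.97-fold above YA-A375. YA-A375 over control was 1.38, with an interval from 0.692 to 2.81 that spans 1. PPARGC1A was a low-count gene in all 3 libraries.

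CRTC2 (ENSG00000160741.16, chr1:153947669-153958625, minus strand), the coactivator that carries cAMP and SIK signals to CREB, had 1852, 1865 and 1680 counts, or 1745, 1763 and 1886 after normalisation. Its folds stayed within 1.2 in all 3 comparisons. They were 1.01 for YA-A375 over control (0.947 to 1.08), 1.08 for OA-A375 over control (1.01 to 1.16) and 0.935 for YA-A375 over OA-A375 (0.875 to 0.999). CRTC2 is regulated by phosphorylation and location, which RNA counts do not measure.

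Per length, CRTC2 was the most abundant of the 9 in every library, at 99.3, 98.6 and 106 TPM in control, YA-A375 and OA-A375. In control the order went on with NR4A2 (36.9), NR4A1 (35.4), CREM (19.0), PDE4D (10.0), PDE4B (4.08), NR4A3 (1.41), PPARGC1A (0.285) and SIK1 (0.0368). SIK1B, at 0.363, would stand next to PPARGC1A. The intervals of NR4A2 and NR4A1 overlapped there, as did those of PPARGC1A and SIK1. YA-A375 put NR4A1 at 76.2, before NR4A2 at 59.0, and CREM at 17.4 overlapped PDE4D at 16.8, as PPARGC1A at 0.387 overlapped SIK1 at 0.181, while SIK1B was at 4.29, close to PDE4B at 4.2. In OA-A375 CREM came before NR4A2 at 18.3, which overlapped PDE4D at 16.5. PDE4B reached 12.1 there and PPARGC1A, at 1.15, overlapped NR4A3, at 0.939. SIK1 was at 0.0866 there and SIK1B at 1.09, so the place of SIK1 as the lowest rests on how reads were assigned between the copies.

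The genes whose pattern over the 3 libraries was most like that of a member were found among 11162 genes with a mean of at least 100, by the distance between their log2 fold changes of both secretome libraries against control. Nearest to NR4A1 were PHLDA3 (1509, 3264 and 1788 counts in control, YA-A375 and OA-A375), SLC6A9 and MT-ND6, all within 0.08 of it. Nearest to NR4A2 were ACAN (106, 174 and 43 counts), which encodes the proteoglycan aggrecan, FN1, which encodes fibronectin (3553, 5167 and 1620 counts), and RP11-477D19.2. ACAN lay at a distance of 0.05 and FN1 at 0.19. PPARGC1A was nearest to AREG, which encodes the growth factor amphiregulin, at 0.05, then to FBXL7 and RP4-718J7.4. ADI1, ARHGAP31 and SLC25A14 were nearest to NR4A3, and PCK2, RPL36A and ALDH1L2 to SIK1. The patterns of NR4A3, SIK1 and PPARGC1A rest on at most 46, 5 and 55 counts, so their nearest genes are uncertain. With 3 libraries such likeness is a description of 2 values per gene.

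The counts of the lists that follow are of genes at least 1.2-fold from control, as 17.4% of all genes were higher and 16.4% lower in YA-A375, and 21.1% higher and 21.5% lower in OA-A375. The cAMP production list joins genes that raise cAMP with G protein subunits that inhibit its production. As a whole it had no shared direction. Of its 14 G protein and adenylyl cyclase genes 9 were tested. In YA-A375 against control 0 were higher and 1 lower by 1.2-fold, and in OA-A375 3 were higher and 3 lower, with medians of -0.05 and 0.14. ADCY1, a calcium-stimulated adenylyl cyclase, had 194 counts in control, 131 in YA-A375 and 15 in OA-A375, a log2 change of -3.37 in OA-A375. GNAS, the stimulatory G protein subunit, had 53034, 47022 and 22336 counts, or 0.502 of control in OA-A375. GNAI1 and GNAI2, inhibitory subunits, were 0.44 and 0.31 above control in OA-A375 on the log2 scale. They and the cyclase ADCY7 were the 3 higher there, while GNAS, ADCY1 and ADCY6 were the 3 lower. ADCY6 and ADCY7 were chosen here by their values.

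Of 13 protein kinase A genes 12 were tested, with 1 higher and 4 lower in YA-A375 and also 1 higher and 4 lower in OA-A375. AKAP12, a scaffold that anchors the kinase, had 40239, 43033 and 8169 counts, a log2 change of -2.05 in OA-A375. The kinase inhibitor genes differed, with PKIA at 228, 110 and 215 counts and PKIB at 27, 29 and 73. PKIA was -1.04 in YA-A375 and PKIB 1.65 in OA-A375 on the log2 scale. PRKX, a related kinase, was -0.46 in OA-A375.

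Like CRTC2, most of the remaining CREB factors, coactivators and kinases were within 1.2-fold of control. Of 8, all tested, 1 was higher and 0 lower in YA-A375, and 0 were higher and 0 lower in OA-A375. EP300, a histone acetyltransferase that CREB recruits, was the gene past 1.2-fold, with 1873, 2450 and 1637 counts and a log2 change of 0.39 in YA-A375. SIK2 and SIK3, the relatives of SIK1, were at -0.25 and -0.11 in YA-A375 and -0.25 and -0.20 in OA-A375. CRTC1 was at 0.14 and -0.23. Between the secretome libraries, 4 of the 8 were at least 1.2-fold higher in YA-A375 and 0 lower, where 23.0% of all genes were higher. These were CREBBP (1.26), EP300, CRTC1 and CRTC3 (1.24), chosen here by their values.

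Of 14 other phosphodiesterase genes that act on cAMP 9 were tested. In YA-A375 2 were higher and 2 lower, and in OA-A375 3 were higher and 3 lower, with medians of -0.06 and 0.07, so the list had no shared direction. PDE3A had 516 counts in control, 308 in YA-A375 and 92 in OA-A375, a log2 change of -2.22 in OA-A375. PDE7B was at -1.20 there. PDE2A, like PDE4D, was higher in both secretome libraries, at 0.78 and 0.83, and PDE1C was -0.59 in YA-A375 and 0.44 in OA-A375.

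Of 16 other known CREB targets 14 were tested, with 7 higher and 3 lower in YA-A375, 8 higher and 5 lower in OA-A375, and medians of 0.24 and 0.36. PER1, a circadian clock repressor that is also induced by glucocorticoids, had 582 counts in control, 3339 in YA-A375 and 610 in OA-A375, or 5.75-fold of control in YA-A375 (5.27 to 6.29). FOSB, a subunit of the AP-1 transcription factor, lay on opposite sides of control as NR4A2 did, with 3695, 10053 and 902 counts. AREG, with 218, 286 and 731 counts, and VGF, a neuropeptide precursor, with 2809, 3720 and 6644, were highest in OA-A375 as PPARGC1A and PDE4B were.

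The 12 other immediate early genes tested, of 13, gave 5 higher and 2 lower in YA-A375 and 4 higher and 7 lower in OA-A375, with medians of 0.18 and -0.53. ATF3, a stress-induced relative of CREB, had 1007, 3207 and 462 counts, and KLF4, a zinc finger factor, had 1490, 3552 and 445. Their log2 changes were 1.67 and 1.26 in YA-A375 and -0.87 and -1.49 in OA-A375, the directions of NR4A2. KLF6 showed the same directions, at 0.38 and -0.92. FOSL1, another AP-1 subunit, was 0.97 in OA-A375 and -0.09 in YA-A375.

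**Figure D5:**
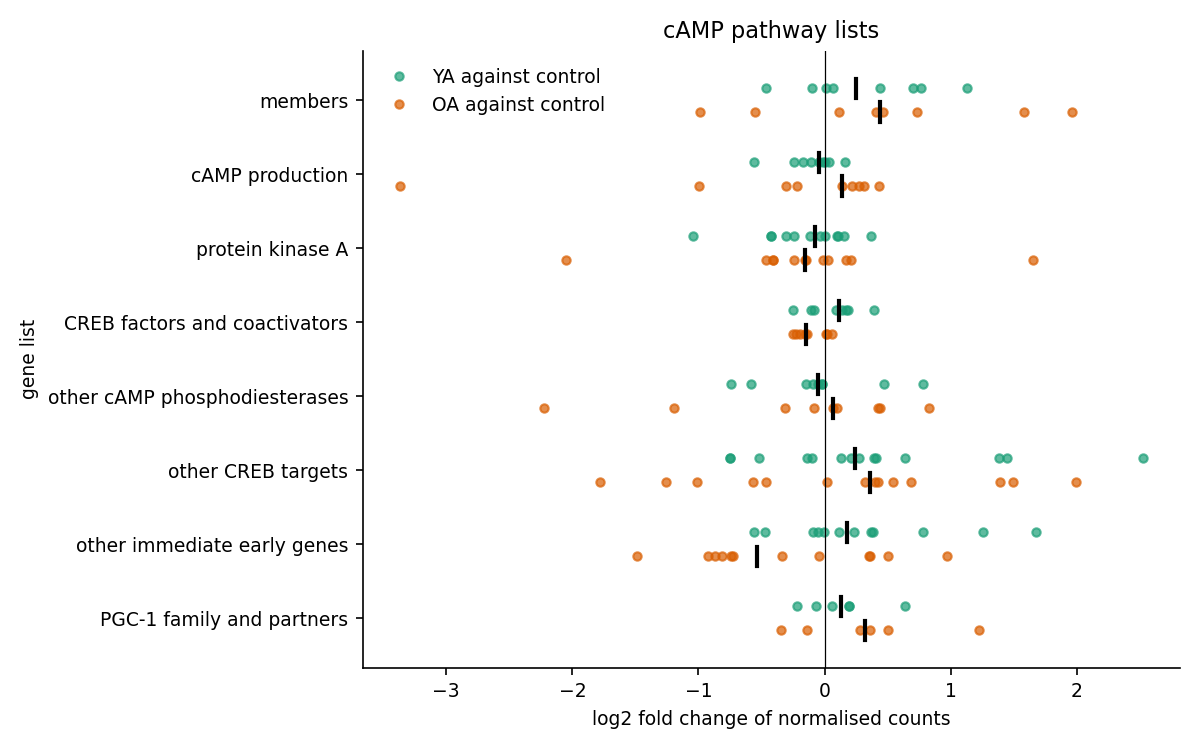
Log2 fold change against control of normalised counts (horizontal axis) for the genes of each cAMP pathway list with a mean of at least 20. Points are genes in YA and OA, and black bars are list medians, such as 0.25 and 0.44 for the 8 members. Members lie on both sides of 0, and other immediate early genes have a median of -0.53 in OA.

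Partners of the members were also read. NR4A1 and NR4A2 can pair with retinoid X receptors, of which RXRG had 708 counts in control, 487 in YA-A375 and 16 in OA-A375, a log2 change of -5.14 in OA-A375. Of these 3 receptors 0 were higher and 1 lower in YA-A375, and 1 was higher and 1 lower in OA-A375. RXRA and RXRB were within 0.38 of control on the log2 scale in both libraries. Of 7 genes of the PGC-1 family and its partners 6 were tested, with 1 higher and 0 lower in YA-A375 and 4 higher and 1 lower in OA-A375, medians 0.13 and 0.32. PPARGC1B, the closest relative of PPARGC1A, had 157, 244 and 310 counts and was highest in OA-A375 as PPARGC1A was, at 1.23 against control. PPRC1 and NRF1 were at 0.50 and 0.36 there, and ESRRG, on 23, 24 and 15 counts, at -0.35.

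Many pigment genes below MC1R and cAMP were at or near 0 counts. Of 8 genes of the melanocyte cAMP arm 2 were tested, and 4 had 3 counts or fewer in each library. These were TYR, DCT and TRPM1 throughout, with PMEL in control and TYRP1 in YA-A375 and OA-A375. PMEL had 2, 10 and 10 counts and TYRP1 6, 3 and 3. The tested genes gave 1 higher and 1 lower in YA-A375, and 1 higher and 0 lower in OA-A375. MC1R had 111, 185 and 129 counts, a log2 change of 0.74 in YA-A375 and 0.47 in OA-A375. MITF, the melanocyte master regulator, which is induced by CREB, had 1221, 764 and 881 counts and was -0.67 in YA-A375 and -0.22 in OA-A375. It was thus lower in YA-A375, where NR4A1, NR4A2 and PDE4D were higher.

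Marker lists of other cell types were set beside the members. Of 9 adipocyte markers 5 were tested, with 5 higher and 0 lower in YA-A375 and 3 higher and 1 lower in OA-A375. Of 8 fibroblast markers 6 were tested, with 3 higher and 1 lower in YA-A375 and 2 higher and 3 lower in OA-A375. DCN, the matrix proteoglycan decorin, had 13 counts in control, 138 in YA-A375 and 24 in OA-A375. PDGFRA, a growth factor receptor, had 76, 20 and 51, FBLN1, a matrix protein, had 136, 155 and 49, and COL1A1 had 75, 117 and 84. These markers thus did not share a direction. Among the adipocyte markers, CIDEC, a lipid droplet protein, had 6, 31 and 36 counts, and PLIN4 had 284, 579 and 321. CIDEC and DCN, at 5.65 and 12.2 normalised counts in control, were tested only through secretome libraries in which they were higher. Of 5 melanoma cell markers 4 were tested, with 1 higher and 1 lower in each secretome library.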

How the data were processed

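The deposited table held unnormalised whole-number read counts of each gene, with 1 column for each library. Per the submitters' processing notes, STAR 2.5.1b, featureCounts, R 3.6.1 and hg38 were used. The annotation release and the use of strand were not given in the sources used here. DESeq2 1.42.0 in R 4.3.3 gave the size factors used for scaling, 1.06 for control, 1.06 for YA and 0.891 for OA. Log2 fold changes used a pseudocount of 1, over genes that averaged 20 normalised counts or more. The threshold of 1.2-fold is the study's cutoff, read as linear. Python 3.11.15, scipy 1.17.1 and Biopython 1.88 served for intervals, motifs and alignment. Counting intervals cover counting error only, since PCR copies without unique identifiers do not count molecules. No test across genes, edgeR's quasi-likelihood test included, was possible with 1 library per group. The procedure was also run on simulated counts that held counting error only, which cannot show how it does with differences between replicates.

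Positions and lengths came from GENCODE 29 on GRCh38, matched for 57433 of 58037 identifiers. The counts may rest on another release. The members and the 12 other gene lists were chosen with earlier results of these data known. From each other list, the named genes were up to 4 with the largest change against control. For NR4A1, NR4A2, NR4A3, SIK1 and PPARGC1A, the 3 genes nearest in pattern were also named. SIK1B, the overlapping genes, ADCY6, ADCY7, CREBBP, CRTC3 and the markers at or near 0 counts were named after values were seen. The alternatives were scaling by TMM (edgeR 4.0.16) or by totals, a minimum mean of 100 or none, a pseudocount raised to 5, a 2-fold threshold, a threshold on the counting interval, longest-transcript lengths and, added after seeing the data, SIK1 summed with SIK1B, longest-transcript lengths for ratios and the adipocyte sum without LPL.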

Additional observations from a re-analysis of the deposited data

Results flagged for a closer look

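The secretome libraries lay on opposite sides of the control library, each by at least 1.2-fold, for 1 of the 8 tested members and 10 of 90 tested genes of the other lists. Over all 14413 genes, 2.58% were higher in YA-A375 and lower in OA-A375, and 2.67% were the reverse. With 1 library per group the difference was not tested for any of them, and both sides share the control. NR4A2 and 7 list genes were higher in YA-A375. On the log2 scale, YA-A375 against OA-A375 was 1.69 for NR4A2, 3.23 for FOSB, 2.54 for ATF3, 2.75 for KLF4, 1.30 for KLF6, 1.21 for DUSP1, 1.12 for ZFP36 and 3.99 for LPL, a lipase gene of the adipocyte list. The 3 list genes that were lower in YA-A375 and higher in OA-A375 were PDE1C, at -1.03, BDNF, at -1.91, and STC1, at -1.44. DUSP1, ZFP36, BDNF and STC1 were named after their values were seen.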

How the results depend on the processing

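All 27 log2 fold changes of the 9 genes kept their direction and stayed within their counting intervals when scaled by TMM or by totals and with the pseudocount raised to 5. For SIK1 that interval is wide, and its log2 change in YA-A375 went from 1.56 to 0.71 with the pseudocount of 5. Counts of members depended on the threshold. At 2-fold in place of 1.2-fold, the 4 higher and 1 lower in YA-A375 against control became 1 and 0, the 5 higher and 2 lower in OA-A375 became 2 and 0, and the 2 higher in YA-A375 against OA-A375 became 1. With a minimum mean of 100, or with the counting interval wholly beyond 1.2-fold, the members lower were 0 in YA-A375 and 1 in OA-A375 against control, and the members higher were 3 and 4. NR4A3 and PPARGC1A fall under that mean, NR4A3 and PPARGC1A have intervals that span 1 in YA-A375, and those of NR4A3 and CREM reach inside 1.2-fold in OA-A375. The members lower in YA-A375 against OA-A375 were 2 with the minimum mean of 100. Summing SIK1 with SIK1B added 1 higher gene to each comparison, giving 5, 6 and 3. The order of mean levels per length kept 7 of 9 places with longest-transcript lengths. Of the list medians, that of adipocyte markers in OA-A375 against control reversed from 0.43 to -1.42 with a minimum mean of 100, where fewer genes are tested. Under the same setting that of adipocyte markers in YA-A375 against OA-A375 went from 0.60 to 2.30, and that of fibroblast markers in OA-A375 against control from -0.13 to -0.79. No paired analysis was possible because each group has 1 library, and no replicate could be left out. Depth limited NR4A3, SIK1 and PPARGC1A, whose counts ran from 1 to 55.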
